A study of Macaca mulatta with 5 samples.

Results

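BLCAP (bladder cancer associated protein, gene ENSMMUG00000015940) was measured in 5 rhesus macaque tissues by RNA-Seq. Every transcript carrying this gene identifier was taken, which gave 1 transcript of the 51763 listed and 1 gene of the 28633 identifiers. The transcript, IMMRT10000022140, ran from position 26937140 to 26947642 of chromosome 10 (chr10:26937140-26947642, rheMac2 build). It spanned 10503 bases and held 2033 bases of exon. The 3 neighbouring recoding sites that the study lists in this gene lay inside this span, and no other listed transcript spanned any of them. The deposited tables hold reads per transcript and not reads per base, so editing at these sites was not analysed here.

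BLCAP is a small, highly conserved membrane protein first described through its lower expression in invasive bladder tumours. Its messenger RNA is a well-known target of A-to-I editing by the ADAR enzymes, which deaminate adenosine in double-stranded RNA and so replace a tyrosine, a glutamine and a lysine near the N-terminus of the protein. The imprinted gene NNAT, which encodes the developmental membrane proteolipid neuronatin, lies within BLCAP in the macaque. Both genes belong to an imprinted locus in the brain.

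The tissues were cerebellum, kidney, lung, heart and spleen of male macaques, none of them treated, with 1 library per tissue and therefore no replicates. The study's methods describe the cerebellum, kidney, lung and heart as tissues of 1 animal, and the animal that gave the spleen is not stated. All 5 libraries were strand-specific and were made from poly(A)-positive RNA. The comparisons asked how much BLCAP RNA each tissue held and how its level stood relative to the editing enzymes and to the genes around it.

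Properly mapped reads ranged from 48306898 in kidney to 81517974 in cerebellum. Marker genes of each tissue were highest in their own library, for 7 of 8 matched cerebellar, 5 of 5 kidney, 6 of 6 lung, 4 of 4 heart and 5 of 5 spleen genes. The exception was CALB1, a calcium-binding protein of Purkinje cells that is also made in the kidney tubule, which was higher in kidney. The heart library stood apart from the other 4 libraries. The deposited transcript reads of heart summed to 47.9% of its properly mapped reads, against 71.3% to 91.5% in the other libraries, and its 10 most abundant genes took 14.1% of the reads, against 3.90% to 7.87%. The median gene was lower in heart than in cerebellum by 0.73 on the log2 scale (log2 ratio -0.73), over 7888 genes at 1 RPKM or more in every tissue. RPKM is the number of reads of a transcript normalised to the length of its exons and to how many reads of the library mapped properly.

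BLCAP was detected in all 5 tissues and was highest in cerebellum. The cerebellar library held 8331 BLCAP reads, which gave 50.3 RPKM (95% Wilson interval 49.2 to 51.4). Kidney was next, with 3142 reads and 32.0 RPKM (30.9 to 33.1). The other tissues lay together at the lower end of the range. In spleen, 2946 reads gave 21.6 RPKM (20.8 to 22.4). In heart, 2704 reads gave 21.0 RPKM (20.2 to 21.8). In lung, 3244 reads gave 20.5 RPKM (19.8 to 21.2). The intervals of spleen, heart and lung overlapped each other, and those of cerebellum and kidney overlapped with no other tissue. These intervals cover counting error only, since reads amplified by PCR are not independent molecules and no tissue was sampled again. In bulk tissue, fewer cells that express BLCAP and less BLCAP RNA per cell cannot be told apart.

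**Figure D1:**
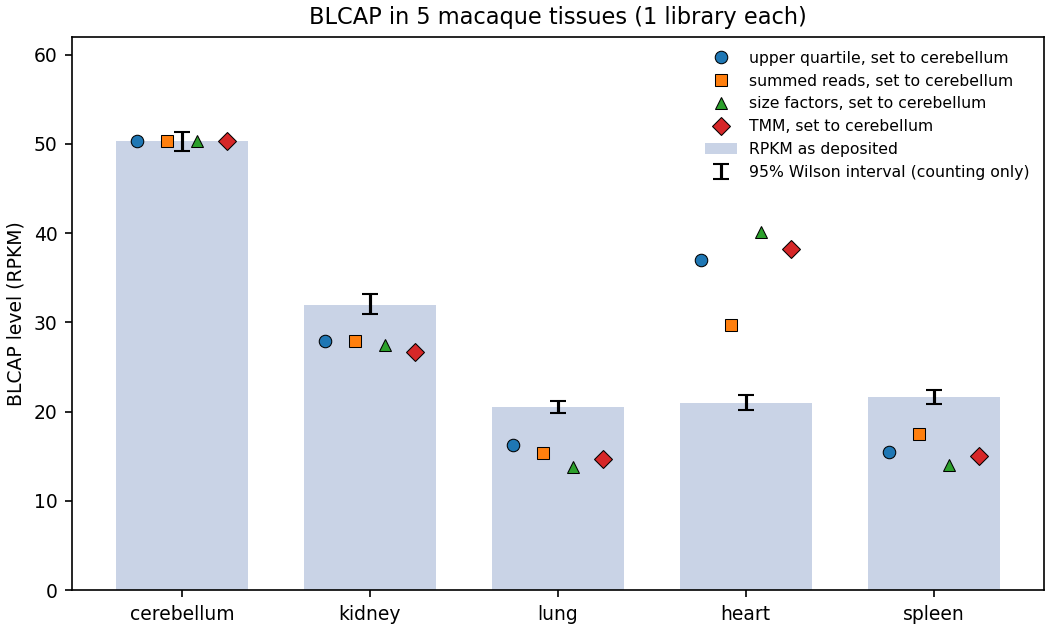
BLCAP level in RPKM (vertical axis) in the 5 tissues. Bars show the deposited values, black lines the 95% Wilson intervals for counting error, and coloured symbols the level after each of 4 other scalings between libraries, with cerebellum held at 50.3 RPKM. Cerebellum was highest under every scaling, and heart moved from 21.0 RPKM to between 29.7 and 40.1 RPKM.

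Among the 10 pairs of tissues, 3 differed by 2-fold or more on the deposited RPKM scale, and all 3 had cerebellum as the higher tissue. The number was 2 to 4 under other scalings between libraries, which are given after the deposited values. The cerebellar level was 2.45 times that of lung (exact 95% interval for the reads 2.35 to 2.55). By comparison, 17.3% of 14334 genes were at least 2-fold higher in cerebellum than in lung. It was 2.33 times that of spleen (2.23 to 2.43), where 19.0% of genes passed the same 2-fold limit. It was 2.39 times that of heart (2.29 to 2.50), where 50.3% of genes passed it as deposited and 29.3% passed it with the libraries scaled by their upper quartile. On the deposited scale, all 3 differences were found together in 11.8% of the 15688 genes that reached 1 RPKM in a tissue.

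Kidney differed from its neighbours by less than 2-fold. Cerebellum exceeded kidney 1.57 times (1.51 to 1.64), with 22.0% of genes past 2-fold in that direction. The kidney level was 1.48 times that of spleen (1.41 to 1.56, with 19.1% of genes past 2-fold). It was 1.52 times that of heart (1.45 to 1.60, with 56.6% past 2-fold) and 1.56 times that of lung (1.48 to 1.64, with 15.8% past 2-fold). At the low end, the ratio of heart to lung was 1.02 (0.973 to 1.08) and that of spleen to heart was 1.03 (0.975 to 1.08). Both intervals, which cover counting error only, included equality on the deposited scale. The ratio of spleen to lung was 1.05, with an interval of 1.001 to 1.11 whose lower bound lay close to equality. Past 2-fold in these directions were 6.93% of genes for heart over lung, 67.4% for spleen over heart and 15.5% for spleen over lung. With upper-quartile scaling the shares that involve heart moved to 25.5% for kidney over heart, 31.8% for spleen over heart and 17.2% for heart over lung. No pair has a replicate check.

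The place of heart in this order depended on how the libraries were scaled. As deposited, heart was below kidney and spleen, and under all 4 other scalings it was above both and next to cerebellum. The heart level, with cerebellum held at 50.3 RPKM, was 37.0 RPKM by the upper quartile of each library, 29.7 RPKM by the reads summed over genes, 40.1 RPKM by median-of-ratios size factors and 38.2 RPKM by TMM factors (trimmed mean of M-values). The cerebellum-to-heart ratio, 2.39 as deposited, was accordingly 1.25 to 1.69 under the other scalings and no longer reached 2-fold. The cerebellum-to-lung ratio was 3.10 to 3.66 and the cerebellum-to-spleen ratio 2.88 to 3.57 under the same scalings, so that both stayed past 2-fold. With the upper quartile, 22.0% of genes passed 2-fold for cerebellum over lung and 25.7% for cerebellum over spleen. Heart was 2.28 to 2.92 times lung and 2.40 to 2.85 times spleen under the upper quartile, size factors and TMM, which added 2 pairs at 2-fold without cerebellum. With summed reads these ratios were 1.94 and 1.70, below 2-fold. The order of spleen and heart thus turned under all 4 scalings, and that of kidney and heart did too, at ratios of heart to kidney of 1.07 to 1.46. Cerebellum stayed the highest tissue under all 4, and lung or spleen was the lowest. The part of library composition in these values was not tested.

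Heart was also nearest to cerebellum when BLCAP was set against the median gene. Relative to the median of the 7888 genes at 1 RPKM or more in every tissue, BLCAP was lower than in cerebellum by 0.53 log2 units in heart (difference of log2 ratios -0.53). The corresponding values were -0.89 for kidney, -1.66 for lung and -1.70 for spleen. Without that reference the log2 ratios to cerebellum were -0.65 for kidney, -1.22 for spleen, -1.26 for heart and -1.29 for lung. The rank of BLCAP within a library uses no scaling between libraries, but it depends on which genes are ranked. Among genes at 1 RPKM or more, BLCAP stood at percentile 95.1 in cerebellum, 89.5 in kidney, 88.8 in heart, 83.2 in lung and 82.9 in spleen. Among all genes, without this limit, heart stood above kidney, at percentile 96.4 against 95.6, with 1043 genes above BLCAP in heart and 1259 in kidney. Lung and spleen remained the lowest by this measure, at 92.4 and 92.5. BLCAP was thus an abundant transcript in every tissue, with 560 genes above it in cerebellum and 2184 above it in lung. Its RPKM was 8.64 times the median expressed gene in cerebellum, 5.34 times in heart, 5.10 times in kidney, 3.04 times in lung and 2.90 times in spleen.

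Cerebellar marker genes were at a small share of their cerebellar level in the heart library. The 7 cerebellar markers other than CALB1 were present in heart at 0.195% to 0.613% of their cerebellar RPKM, with a median of 0.367%. That median share of the cerebellar BLCAP level corresponds to 0.184 RPKM, and heart stood at 20.8 RPKM without it. In kidney, lung and spleen the minimum and median shares of the same 7 markers were 0%, with maxima of 0.639%, 0.418% and 0.435%. Heart was thus the only one of these libraries that held all 7, and the reason was not tested.

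BLCAP varied less between tissues than most of the genes that reached 1 RPKM in a tissue. Its highest level was 2.45 times its lowest, while the median of the 15688 genes was 7.89. The ratio was at or above that of BLCAP in 91.0% of these genes, and 95.3% reached a ratio of 2. With the 4 other scalings, the BLCAP ratio was 3.26 to 3.66 and the share of genes at or above it was between 62.2% and 69.6%. Among the 7888 genes at 1 RPKM or more in every tissue, 82.8% had a ratio at or above that of BLCAP on the deposited scale. That share was not computed under the other scalings, so how BLCAP compares there with genes present in every tissue is not known. The tissue specificity index tau, which is 0 for equal levels and 1 for a gene of a single tissue, was 0.189 for BLCAP on log2(RPKM + 1). Its range over the Wilson bounds, which cover counting error only, was 0.176 to 0.202. On the deposited scale 14.1% of genes had a tau at or below that of BLCAP, where the median gene had 0.404. The share by tau was not computed under the other scalings either.

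On the deposited scale BLCAP had its maximum in cerebellum and its minimum in lung, although lung lay within 1.05-fold of heart and spleen. Of the 15688 genes, 20.1% were highest in cerebellum, 6.86% were lowest in lung, and 459 genes (2.93%) were both. Under the other scalings 24.2% to 25.8% of genes were highest in cerebellum, 12.8% to 18.2% were lowest in lung and 4.63% to 6.48% were both, and BLCAP itself was lowest in spleen with the upper quartile. The ratio over lung, heart and spleen was 1.05 for BLCAP, and 11 genes (0.0701%), BLCAP included, had a ratio over these tissues as small as this or smaller. This closeness was a feature of the deposited scale. Under the other scalings the ratio over lung, heart and spleen was 1.94 to 2.92, and 23.7% to 49.5% of genes had a ratio at or below it. Without cerebellum, the highest-to-lowest ratio over the remaining 4 tissues was 1.56 on the deposited scale, against a median of 5.81 over genes.

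**Figure D2:**
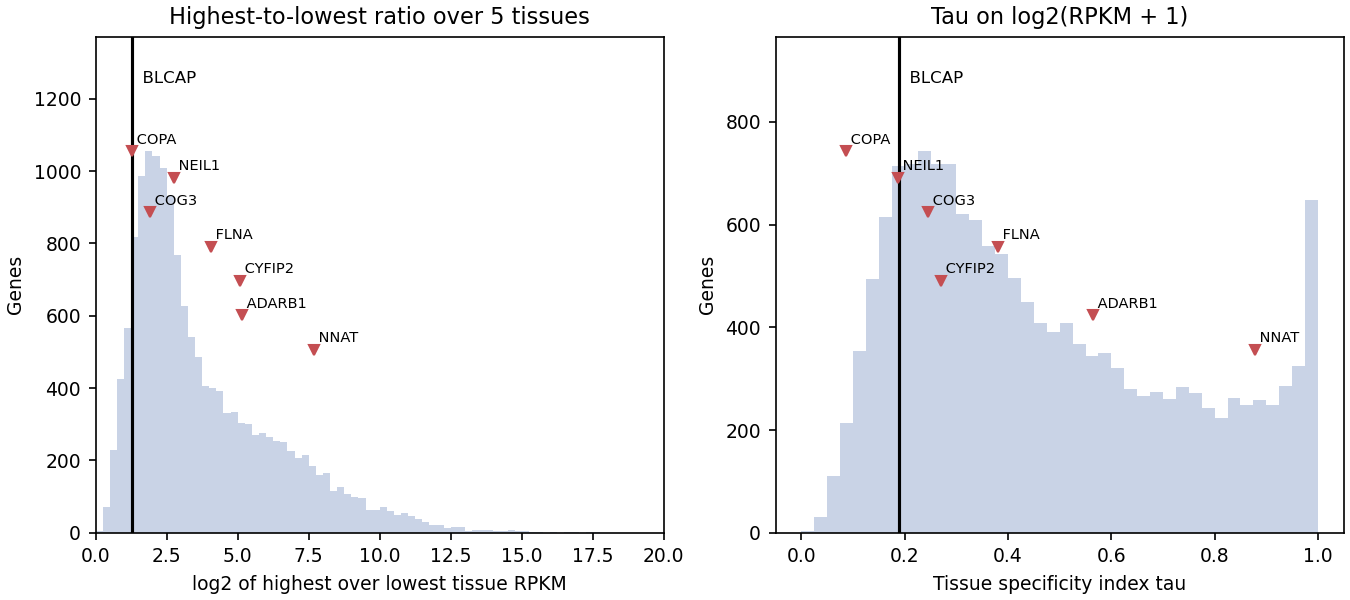
Variation between tissues of 15688 genes. The left panel counts genes (vertical axis) by the log2 of the highest over the lowest tissue RPKM, and the right panel by tau on log2(RPKM + 1). The black line marks BLCAP (ratio 2.45, tau 0.189), which stood to the left of most genes, and triangles mark other genes at arbitrary heights.

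NNAT, although it lies inside BLCAP, was largely a cerebellar gene in these libraries. Its 2 transcripts (ENSMMUG00000019174) lay wholly inside the BLCAP span, and the one described here ran from 26941382 to 26943824 of chromosome 10 (rheMac2). NNAT reads were 1378 in cerebellum, 124 in lung, 20 in heart, 14 in spleen and 4 in kidney. The corresponding levels were 14.5 RPKM in cerebellum, 1.36 in lung, 0.270 in heart, 0.178 in spleen and 0.0708 in kidney. NNAT therefore reached 1 RPKM in cerebellum and lung only, where BLCAP did so in all 5 tissues. The cerebellar NNAT level was 10.6 times that of lung (exact 95% interval 8.82 to 12.8), 53.5 times that of heart (34.5 to 87.9), 81.0 times that of spleen (48.1 to 149) and 204 times that of kidney (79.6 to 750). Kidney, the tissue with the second highest BLCAP level as deposited, thus had the lowest NNAT level, on 4 reads.

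BLCAP exceeded NNAT within every library. The RPKM of BLCAP was 3.48 times that of NNAT in cerebellum, 15.0 times in lung, 77.7 times in heart, 121 times in spleen and 452 times in kidney. These ratios are taken within a library and do not depend on the scaling between libraries.

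Whether NNAT reads were also counted for BLCAP could not be read from the tables, which give neither exon positions nor strand. NNAT reads came to 16.5% of BLCAP reads in cerebellum and to between 0.127% and 3.82% in the other tissues. With all NNAT reads taken away from BLCAP, the cerebellar level was 42.0 RPKM and the order of the tissues stayed as deposited. The ratio of cerebellum to lung was then 2.13, to heart 2.01 and to spleen 1.95, so that the comparison with spleen no longer reached 2-fold.

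**Figure D3:**
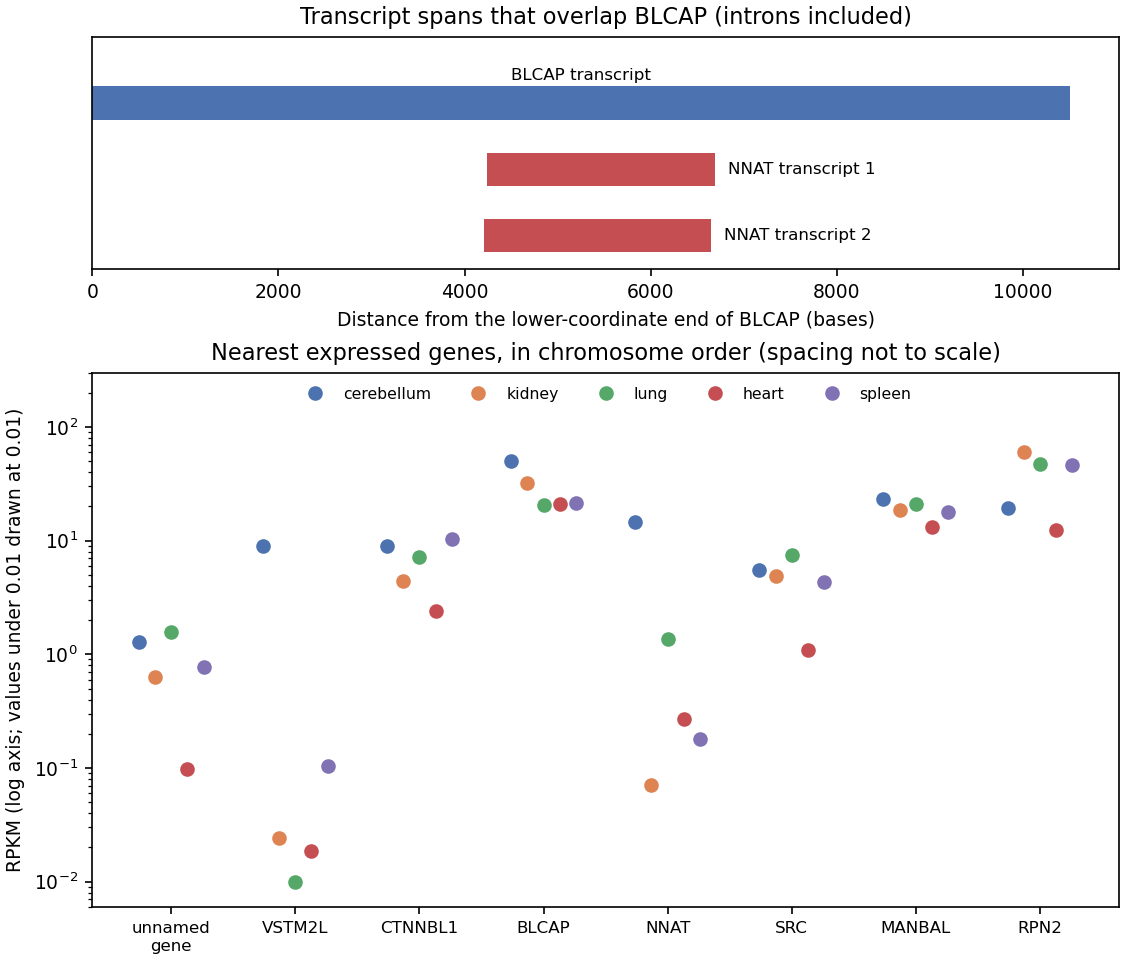
The BLCAP locus. The upper panel shows the spans of BLCAP and of the 2 NNAT transcripts, in bases from the lower-coordinate end of BLCAP. The lower panel shows RPKM on a log axis in each tissue for BLCAP, NNAT and the 3 nearest genes on each side that reached 1 RPKM in a tissue. NNAT ranged from 0.0708 to 14.5 RPKM while BLCAP ranged from 20.5 to 50.3 RPKM.

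The nearest genes on either side of BLCAP had maxima in several tissues. Towards lower coordinates lay CTNNBL1, a spliceosome-associated protein, at a distance of 171 kb, and VSTM2L, an immunoglobulin-domain protein, at 380 kb. CTNNBL1 was at 8.93 RPKM in cerebellum and highest in spleen, at 10.3 RPKM, on the deposited scale, while under the 4 other scalings it was highest in cerebellum. VSTM2L was at 9.002 RPKM in cerebellum and at 0.104 RPKM or less elsewhere, so that, like NNAT, it was largely a cerebellar gene. The unnamed gene ENSMMUG00000025880, at 450 kb, did not exceed 1.58 RPKM. Towards higher coordinates lay the tyrosine kinase gene SRC at 108 kb, MANBAL at 199 kb and RPN2, a subunit of the oligosaccharyltransferase complex, at 277 kb. SRC was highest in lung (7.43 RPKM) and lowest in heart (1.08 RPKM) as deposited, with its maximum in cerebellum under size factors and TMM. RPN2 was highest in kidney (60.0 RPKM) and stood at 19.6 RPKM in cerebellum.

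MANBAL had the smallest ratio between tissues of these 6 neighbours, as deposited and under the 4 other scalings (1.61 to 2.14). Its deposited levels were 23.4 RPKM in cerebellum, 21.1 in lung, 18.5 in kidney, 18.0 in spleen and 13.2 in heart, a range of 1.78-fold. Like BLCAP it was highest in cerebellum as deposited, with the upper quartile and with summed reads, but heart stood above cerebellum with size factors (25.2 RPKM) and TMM (24.0 RPKM). The ratio of BLCAP to MANBAL within a library was 2.14 in cerebellum, 1.73 in kidney, 1.59 in heart, 1.197 in spleen and 0.973 in lung. BLCAP was therefore above MANBAL in 4 of 5 tissues and near it in lung. Of a list of 9 genes of the locus, 8 reached 1 RPKM in a tissue, with a median highest-to-lowest ratio of 5.59 against 7.89 for all genes on the deposited scale. Under the other scalings the median was 2.56 to 3.14 against 5.80 to 6.14 for all genes. On the deposited scale 3 of these 8 genes were highest in cerebellum, and 5 were under each of the other scalings. Over all genes, the share highest in cerebellum was 20.1% as deposited and 24.2% to 25.8% under the other scalings. As deposited, 5 of the 8 had a ratio above that of BLCAP, against 91.0% of all genes at or above it, and 3 or 4 did under the other scalings, against 62.2% to 69.6%. TGM2, a transglutaminase gene of the list, had the opposite extremes to BLCAP, with 43.3 RPKM in lung and 0.560 RPKM in cerebellum. GHRH, the growth hormone-releasing hormone gene, stayed below 1 RPKM in every tissue.

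The editing enzyme genes ADAR and ADARB1 did not share the tissue order of BLCAP, although ADARB1 also had its maximum in cerebellum. ADAR, the gene of the broadly expressed enzyme ADAR1, was highest in spleen at 43.9 RPKM, followed by lung at 31.8, kidney at 19.8, cerebellum at 16.9 and heart at 5.69 RPKM. The tissue with the most BLCAP RNA was thus next to last for ADAR on the deposited scale. ADARB1, the gene of ADAR2, was highest in cerebellum at 21.4 RPKM, followed by lung at 13.2, spleen at 2.66, kidney at 1.71 and heart at 0.608 RPKM. Spleen and cerebellum stayed highest for ADAR and ADARB1, and heart stayed lowest for both, under all 4 other scalings. Of all genes, 34.2% were highest in spleen, 20.1% were highest in cerebellum and 52.1% were lowest in heart as deposited. ADARB2, which encodes an ADAR protein without known catalytic activity, reached 0.748 RPKM in cerebellum and was lower elsewhere.

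The level of BLCAP RNA relative to the RNA of the enzyme genes differed between tissues. As deposited, the highest-to-lowest ratio of ADAR itself was 7.71, near the 7.89 of the median gene, and that of ADARB1 was 35.2. A gene that varies more than BLCAP gives such a spread of ratios by its own levels. BLCAP RPKM was 2.97 times ADAR RPKM in cerebellum, 3.69 times in heart, 1.62 times in kidney, 0.646 times in lung and 0.492 times in spleen. Relative to ADARB1 it was 34.6 times in heart, 18.7 times in kidney, 8.11 times in spleen, 2.35 times in cerebellum and 1.56 times in lung. Lung had the lowest ratio to ADARB1 and the second lowest to ADAR, and heart had the highest ratio to both. BLCAP was below ADAR in lung and spleen and above ADARB1 in all 5 tissues.

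**Figure D4:**
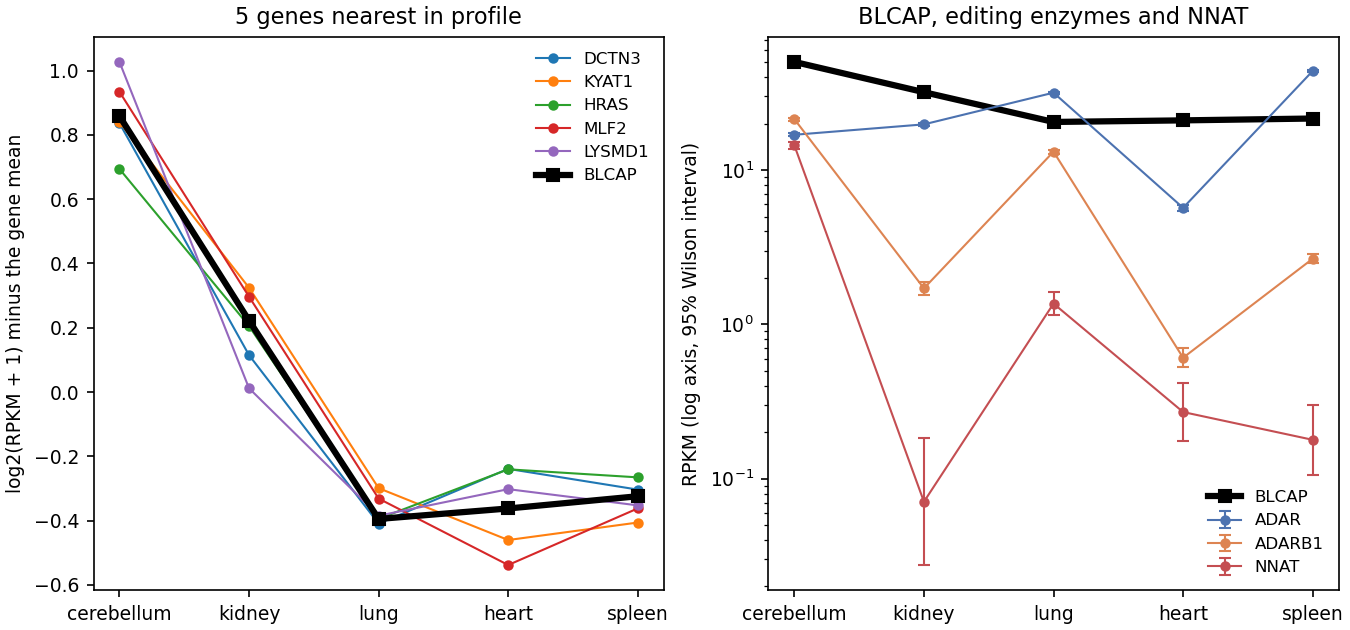
Profiles across the 5 tissues. The left panel shows log2(RPKM + 1) minus the mean of each gene for BLCAP (black) and the 5 genes nearest to it in profile. The right panel shows RPKM on a log axis for BLCAP, ADAR, ADARB1 and NNAT, with 95% Wilson intervals for the last 3 genes. BLCAP stayed between 20.5 and 50.3 RPKM while ADARB1 was at 0.608 RPKM in heart and NNAT at 0.0708 RPKM in kidney.

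Genes of proteins reported to modulate editing were mostly highest outside cerebellum, as most genes were. Of 11 genes in the list, 10 could be matched, and on the deposited scale 7 were highest in spleen, 2 in kidney, 1 in lung and 0 in cerebellum. Of all genes, 34.2% were highest in spleen and 20.1% in cerebellum on that scale. Under the other scalings 3 to 6 of the 10 were highest in spleen, against 21.5% to 30.8% of all genes, and at most 1 in cerebellum, against 24.2% to 25.8%. Their median highest-to-lowest ratio was 4.68 as deposited and 2.34 to 2.83 under the other scalings, below the medians of all genes (7.89 and 5.80 to 6.14). The ratio of 9 of the 10 was above the 2.45 of BLCAP as deposited, close to the 91.0% of all genes at or above it. Under the other scalings 2 to 4 of the 10 were above BLCAP, against 62.2% to 69.6% of all genes. The RNA helicase gene DHX9 was at 24.2 RPKM in spleen and 10.96 RPKM in cerebellum. The RNA-binding protein gene ELAVL1 ranged from 3.93 RPKM in heart to 9.88 RPKM in spleen. AIMP2, a scaffold of the aminoacyl-tRNA synthetase complex, was the 1 gene of the list with a ratio below that of BLCAP on the deposited scale (2.03) and was lowest in cerebellum at 2.68 RPKM.

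Of the other genes with recoding sites in the study, 6 were compared in the same way. The highest-to-lowest ratio of 5 of 6 exceeded that of BLCAP on the deposited scale, against 91.0% of all genes at or above it. Under the other scalings 3 or 4 of the 6 exceeded it, against 62.2% to 69.6% of all genes. The median ratio of the 6 genes was 11.7 as deposited and 7.14 to 8.33 under the other scalings. COPA, which encodes a coat protein of Golgi vesicles, was below BLCAP as deposited, at 2.41. Its level of 32.3 RPKM in cerebellum was below that of BLCAP, and its levels of 33.5 RPKM in lung and 31.5 RPKM in spleen were above it. FLNA, the actin crosslinker filamin A, was at 115 RPKM in lung and 6.89 RPKM in cerebellum. IGFBP7, a secreted binding protein of insulin-like growth factors, was at 1.33 RPKM in cerebellum and 24.5 RPKM in kidney. CYFIP2, a partner of the fragile X protein, was highest in cerebellum like BLCAP, at 38.2 RPKM, but stood at 1.13 RPKM in heart. NEIL1, a DNA repair glycosylase, ranged from 2.72 RPKM in heart to 18.5 RPKM in spleen, and COG3, a subunit of a Golgi tethering complex, from 2.19 RPKM in heart to 8.20 RPKM in spleen. BLCAP was above all 6 genes in cerebellum, kidney and heart. In lung and spleen it was below FLNA, CYFIP2 and COPA and above IGFBP7, COG3 and NEIL1.

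Genes with a profile close to that of BLCAP were sought among 8654 genes with at least 100 reads in every tissue, by the root mean square difference of centred log2(RPKM + 1) over the 5 tissues. The 5 nearest were DCTN3 (difference 0.07), KYAT1 (0.09), HRAS (0.10), MLF2 (0.10) and LYSMD1 (0.12), while the median gene differed by 0.81. The sixth gene also stood at 0.12, so the end of this list is not a sharp boundary. DCTN3, a subunit of the dynactin motor complex, had 90.8 RPKM in cerebellum, 54.7 in kidney, 42.6 in heart, 40.7 in spleen and 37.7 in lung. Its order of the 2 highest tissues and its lowest tissue were those of BLCAP, at about the same ratio between extremes (2.41). HRAS, a small GTPase, ran from 2.55 RPKM in lung to 6.54 RPKM in cerebellum, and MLF2 from 46.6 RPKM in heart to 131 RPKM in cerebellum. KYAT1, a kynurenine aminotransferase, ranged from 4.13 RPKM in heart to 11.6 RPKM in cerebellum, and LYSMD1 from 2.73 RPKM in lung to 8.92 RPKM in cerebellum. Membership of this list depended on the measure. With Pearson correlation in place of the difference 1 of the 5 genes was kept (HRAS), without spleen 1 was kept (DCTN3), and with TMM factors 3 were kept (DCTN3, HRAS and MLF2).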

How the data were processed

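Strand-specific (dUTP) poly(A)-positive RNA-Seq libraries of 5 macaque tissues were analysed, 1 per tissue, grouped by the tissue label. The deposited counts are reads per transcript, not normalized, and a read can count for several transcripts. The deposited RPKM values were made by the authors from these counts, the exon length and the properly mapped reads, and could be recomputed in every row. TopHat 1.2.0 is named in the submitters' processing notes. The study's methods describe BWA and the rheMac2 build for the calling of editing sites. The counting tool and whether counting used strand are not given in the sources used here. Precision is limited by 2704 to 8331 BLCAP reads per library, and a level of 3 reads was taken as the smallest that each depth can show.

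Files were joined by transcript, and start positions, 0-based in all files but spleen, were put on a 1-based scale. For 7 transcripts, BLCAP not among them, the length of exon differed between files. A gene was represented by its transcript with the highest RPKM summed over tissues, and BLCAP has 1. Symbols came from a name table, which covered 15556 of 28633 identifiers. The table gives the BLCAP symbol to 1 identifier absent from these files, so the name rests on the study's use of the position and on the neighbours: NNAT lies inside BLCAP in RefSeq too, between SRC and CTNNBL1.

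With 1 library per tissue no test was made. Levels have 95% Wilson intervals, ratios have exact conditional (Clopper-Pearson) intervals of the reads, and a gene was called at 2-fold among genes at 1 RPKM or more in at least 1 of both tissues. Tau and likeness used log2(RPKM + 1). The named genes were all transcripts of BLCAP, those overlapping it, the 3 nearest genes on each side at 1 RPKM or more in a tissue, the 5 genes nearest in profile with at least 100 reads in every tissue, and lists of editing enzymes, editing modulators, other recoded genes, genes of the locus and tissue markers. The gene and lists were chosen with earlier results of these data known. Alternatives were 4 scalings between libraries (upper quartile, summed reads, size factors, TMM), other pseudocounts and filters, each tissue left out, another measure of likeness, and NNAT reads subtracted. The scripts were tested on simulated data. TMM factors came from edgeR 4.0.16 (R 4.3.3), intervals from scipy 1.17.1, tables from pandas 2.3.3 and figures from matplotlib 3.10.9, under Python 3.11.15 with numpy 2.4.6.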

Additional observations from a re-analysis of the deposited data

How the results depend on the processing

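No paired analysis was possible because each tissue has 1 library and no test was made. The alternatives with another transcript of the gene gave no value, since BLCAP has 1. The subtraction of NNAT reads or of the cerebellar trace in heart was chosen after seeing the data. So were the counts of pairs and the TMM list of like genes. The shares of genes past 2-fold with the upper quartile or a 10 RPKM filter were also chosen then. Cerebellum was highest in every alternative that kept it. Relative to the deposited 32.0 RPKM in kidney, the level was 27.9 with the upper quartile, 27.9 with summed reads, 27.5 with size factors and 26.7 RPKM with TMM. In lung, deposited at 20.5, these gave 16.2, 15.3, 13.7 and 14.7 RPKM. In heart, deposited at 21.0, they gave 37.0, 29.7, 40.1 and 38.2 RPKM. In spleen, deposited at 21.6, they gave 15.4, 17.4, 14.1 and 15.0 RPKM. As deposited, the log2 ratio of the median gene to cerebellum was 0.24 for kidney, 0.37 for lung, -0.73 for heart and 0.48 for spleen. The highest-to-lowest ratio (2.45) was 3.26, 3.28, 3.66 and 3.42 in the same order, and 1.56 without cerebellum. Tau (0.189) was 0.206 with summed reads, 0.208 with size factors, 0.205 with TMM, 0.123 with a pseudocount of 0.1 RPKM, 0.115 without cerebellum and 0.215 without kidney. With NNAT reads subtracted, cerebellum was at 42.0 RPKM, lung at 19.7 RPKM and the ratio at 2.13. Of the 5 genes nearest in profile, 1 was shared with Pearson correlation, 1 without spleen and 3 with TMM. The cause of these shifts was not tested. Without a filter on low genes the percentile of BLCAP was 98.0 in cerebellum, 96.4 in heart, 95.6 in kidney, 92.5 in spleen and 92.4 in lung. The pairs at 2-fold numbered 4 with the upper quartile, size factors or TMM and 2 with summed reads or NNAT reads subtracted. With 1 library per tissue, differences between animals, dissections and library preparations cannot be told apart from differences between tissues, and depth limits NNAT in kidney, at 4 reads, more than any BLCAP value.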
